A study of Oryza sativa with 6 samples.

Results

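The long arm of rice chromosome 6 was followed from its proximal to its distal end as a stretch of 14.4 Mb, from 16.3 to 30.7 Mb of the MSU v7.0 assembly. Members were selected on one measured value, the summit position in the peak lists, and every BG4-DNA-IP-seq peak with its summit between these limits was taken, which gave 11098 of the 289038 peaks in the 4 peak lists (3.84%). The stretch makes up 3.86% of the genome length spanned by peaks. The lists carry no centromere, so the name of the arm rests on position alone, on a chromosome whose last peak ends at 31.2 Mb. The stretch was proposed with earlier results of the same lists in view, and its peak density is therefore given as a description.

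A G-quadruplex (G4) is a DNA structure in which guanine-rich strands fold into stacked planar arrays of guanines. The arrays are held by hydrogen bonds between guanines, and potassium ions can stabilize the structure. BG4 is an antibody fragment that binds such structures. Polyethylene glycol (PEG) crowds the solution and favors folding, whereas pyridostatin (PDS) is a small ligand that stacks on folded G4s. Rice chromosome arms generally carry more repeats near the centromere and more genes toward the tip, and G4-forming sequences occur in both.

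Fragmented genomic DNA of wild-type rice seedlings (cultivar Nipponbare, above-ground parts) was denatured, refolded and pulled down with BG4. The K+PEG libraries (n = 2) were incubated with 150 mM KCl and 40% PEG, and the K+PDS libraries (n = 2) with 150 mM KCl and PDS according to the methods of the study. Purified DNA was folded in vitro in all 4 libraries, so chromatin was no longer present at the pulldown. Peaks were called in each library separately by the authors with MACS2, the weakest of each list at a −log10 p of at most 2.06, and the 2 input libraries were not analysed here. Relative to K+PDS replicate 1, the shallowest library, the depth recovered from the lists was 1.32 and 2.23 times higher in K+PEG replicates 1 and 2 and 1.26 times higher in K+PDS replicate 2. Peak names carry the word uniq in both K+PDS lists and in neither K+PEG list. Whether reads were filtered for unique mapping under K+PDS alone was not tested, and such a filter cannot be told apart from the condition.

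The long arm had 2768 and 3181 peaks under K+PEG (replicates 1 and 2, in this order throughout) and 2478 and 2671 peaks under K+PDS. Both K+PEG libraries were thus above both K+PDS libraries, with 2974 ± 292 (SD, n = 2) against 2574 ± 136 peaks, a ratio of 1.16. No p-value is given for peak number or density, since the stretch was proposed with these lists in view. The deeper libraries had more peaks. At the depth of K+PDS replicate 1, reached by random removal of summit reads, 2707 and 2872 peaks were left under K+PEG and 2478 and 2586 under K+PDS. The ratio of their means was then 1.10. With equally long lists, the 64874 peaks of each library with the highest −log10 p, the ratio was 0.986. For K+PDS replicate 1 this was its whole list.
As a share of its own list, the arm took 3.78 and 3.88% of the K+PEG peaks and 3.82 and 3.87% of the K+PDS peaks. These shares overlapped between the conditions. Peak density on the arm was 0.979 and 1.01 times that of the rest of the genome under K+PEG and 0.990 and 1.00 times under K+PDS, with a mean of 0.995 ± 0.0125 (SD, n = 4). The difference from 1 was smaller than the spread between libraries. Chromosome 6 before the arm, from its start to 16.3 Mb, was slightly denser in every library, with 204 and 229 peaks per Mb under K+PEG and 181 and 193 under K+PDS, against 192, 221, 172 and 185 on the arm in the same order. Peaks covered 8.96 and 11.1% of the arm under K+PEG and 8.67 and 8.54% under K+PDS.
Peak number on the arm as a whole thus lay close to that of the rest of the genome, whereas it varied with position along the arm.

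**Figure D1:**
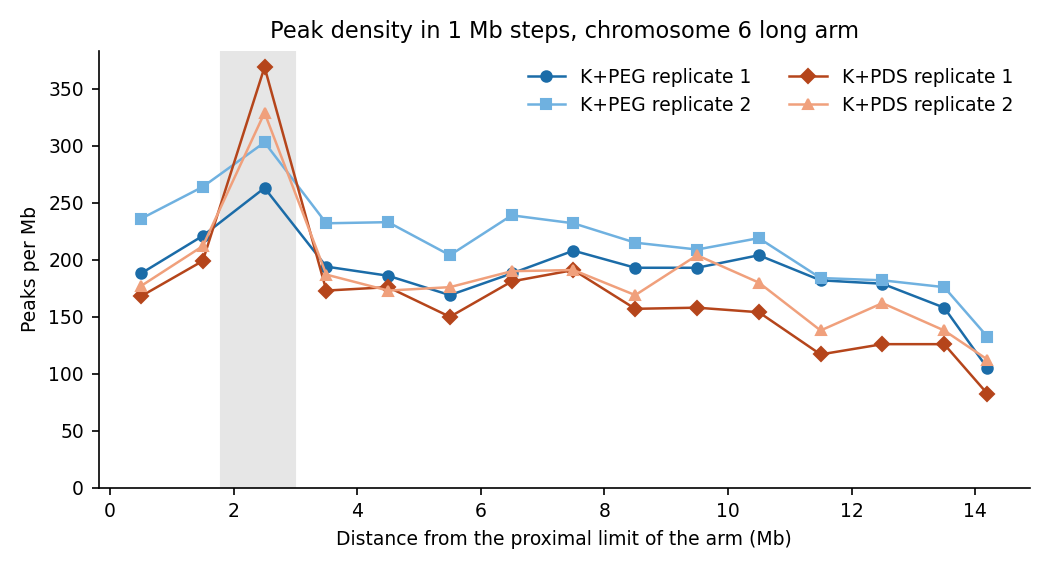
Peaks per Mb in steps of 1 Mb (the last of 0.4 Mb) against the distance from the proximal limit, 1 line per library, with the block from 18.1 to 19.3 Mb shaded. Density peaked in the step from 18.3 Mb, at 263 and 303 peaks per Mb under K+PEG and 369 and 329 under K+PDS, and was lowest at the distal end in all 4 libraries.

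Followed in steps of 1 Mb, peak density was highest from 18.3 to 19.3 Mb in all 4 libraries and fell toward the tip. The first step, from 16.3 Mb, held 188 and 236 peaks under K+PEG and 168 and 177 under K+PDS. The next step, from 17.3 Mb, held 221 and 264 under K+PEG and 199 and 212 under K+PDS. The step from 18.3 Mb held 263 and 303 under K+PEG and 369 and 329 under K+PDS, the only step on the arm in which both K+PDS libraries had more peaks than both K+PEG libraries. From there the counts returned to 194 and 232 under K+PEG and 173 and 187 under K+PDS in the step from 19.3 Mb. Between 20.3 and 26.3 Mb they stayed from 169 to 239 under K+PEG and from 150 to 204 under K+PDS. The step from 27.3 Mb held only 117 and 138 peaks under K+PDS, compared with 182 and 184 under K+PEG. The last full step, from 29.3 Mb, held 158 and 176 under K+PEG and 126 and 138 under K+PDS.
The mean density of the 4 libraries ran from 316 peaks per Mb in the densest step to 149.5 in the last full step and 108 in the closing 0.4 Mb. Among 363 steps of 1 Mb laid over the whole genome in the same way, the step from 18.3 Mb ranked 4 by mean share of peaks, and the step from 29.3 Mb ranked 345.

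To summarize the course along the arm, its proximal 4.8 Mb (up to 21.1 Mb) were set against its distal 4.8 Mb (from 25.9 Mb). In K+PEG replicate 1, density went from 211 peaks per Mb in the proximal part through 189.6 in the middle to 176 in the distal part. K+PEG replicate 2 went from 254 through 224 to 185.0. K+PDS replicate 1 went from 219 through 171 to 126, and K+PDS replicate 2 from 218 through 185.0 to 153. All 4 libraries were thus thinnest at the distal end. The ratio of distal to proximal density was 0.832 and 0.728 under K+PEG and 0.575 and 0.703 under K+PDS. Its mean was 0.710 ± 0.106 (SD, n = 4).
The decline was steeper in both K+PDS libraries than in both K+PEG libraries. On the log2 scale the ratio was -0.36 ± 0.14 (SD, n = 2) under K+PEG and -0.65 ± 0.21 under K+PDS, which differ by 0.29. This difference is a description, since the stretch was proposed with the same lists in view. It rested in part on the dense block described next. With the block from 18.1 to 19.3 Mb left out of the proximal part, the ratios were 0.920 and 0.791 under K+PEG and 0.743 and 0.835 under K+PDS. The conditions then overlapped, and the log2 difference was 0.12. With both parts extended to the middle of the arm it was 0.18, and the conditions overlapped as well. It was 0.53 by covered bases and 0.15 without K+PDS replicate 1.

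**Figure D2:**
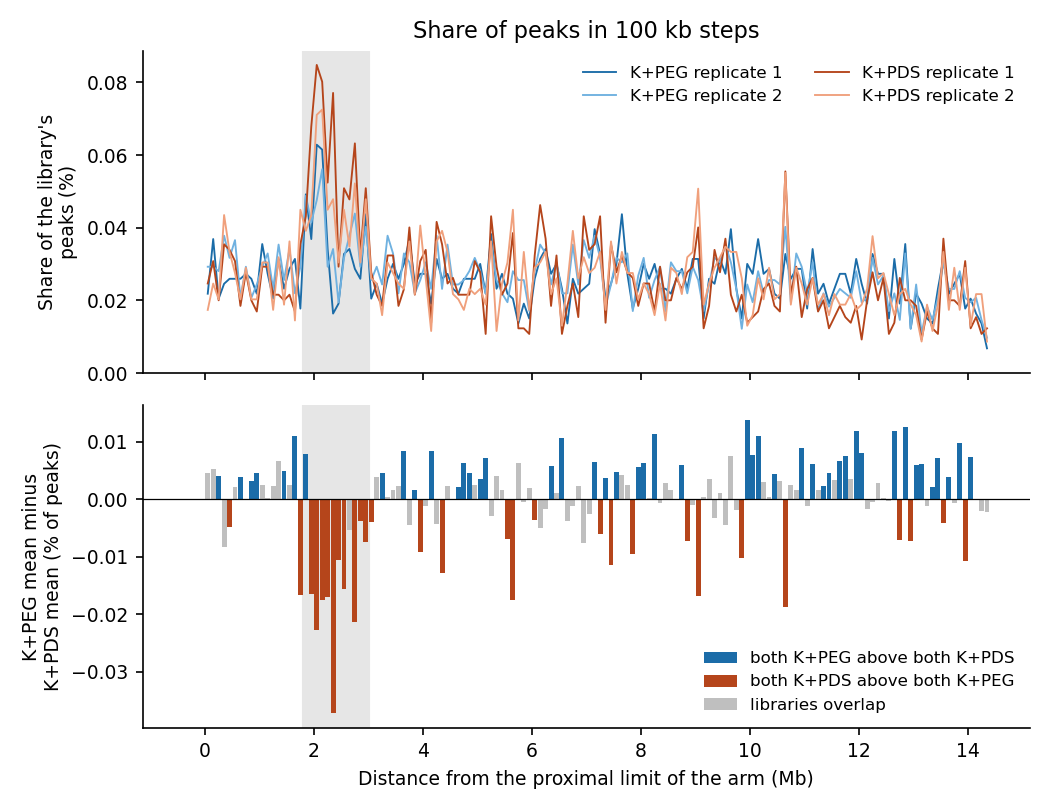
Top, share of each library's peaks in steps of 100 kb against the distance from the proximal limit. Bottom, K+PEG mean minus K+PDS mean of these shares, colored where both libraries of a condition lay above both of the other. K+PDS exceeded K+PEG in 10 of the 12 steps of the shaded block, and K+PEG exceeded K+PDS in 21 of the 48 distal steps.

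In steps of 100 kb, a step held 5 to 46 and 8 to 46 peaks in the K+PEG libraries and 6 to 55 and 6 to 50 peaks in the K+PDS libraries. The medians over 144 steps were 19, 21, 15 and 17 peaks. The counts of the steps correlated with Pearson's r of 0.743 between the K+PEG replicates, 0.852 between the K+PDS replicates and from 0.593 to 0.750 between conditions. These correlations describe the 144 steps, which are the same stretches of the genome in every library. The part of base composition or mappability in these correlations was not tested. Without the 12 steps of the dense block they were 0.655, 0.750 and 0.406 to 0.680. K+PEG replicate 2 was closer to K+PDS replicate 1 (0.750) than to its own replicate (0.743).
The 3 densest steps were neighbours, from 18.2 to 18.5 Mb. The step from 18.4 Mb held 45 and 46 peaks under K+PEG and 52 and 50 under K+PDS, and that from 18.3 Mb held 46 and 39 against 55 and 49. The step from 18.2 Mb held 27 and 34 against 44 and 30. The first of these ranked 11 by mean share among 3726 steps of 100 kb in the genome.
The 3 sparsest steps were all near the tip. From 30.6 Mb, the last step held 5 and 8 peaks under K+PEG and 8 and 6 under K+PDS, the step from 29.4 Mb held 14 and 9 against 6 and 6, and that from 29.6 Mb held 10 and 12 against 8 and 8.

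The widest stretch without a peak lay at a different place in each library. It ran from 18544616 to 18593566 in K+PEG replicate 1 (48951 bp), within the dense block described next, and the other libraries had 4, 5 and 4 peaks there. In K+PEG replicate 2 it ran from 26132277 to 26186162 (53886 bp), where the others had 4, 2 and 2 peaks. K+PDS replicate 1 lacked peaks from 30557354 to 30627939 (70586 bp) and K+PDS replicate 2 from 29607516 to 29657310 (49795 bp), both near the tip. No such stretch was free of peaks in all 4 libraries. The median distance between neighbouring peaks was 2842 and 2312 bp under K+PEG and 2356 and 2458 bp under K+PDS. Stretches of at least 15 kb without a peak numbered 152 and 112 under K+PEG and 222 and 204 under K+PDS. They were more in both K+PDS libraries, although the median distances of these lay within the range of the K+PEG libraries. The counts fell from library to library as the arm's peak number rose. The part of list length and depth in them was not tested.

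**Figure D3:**
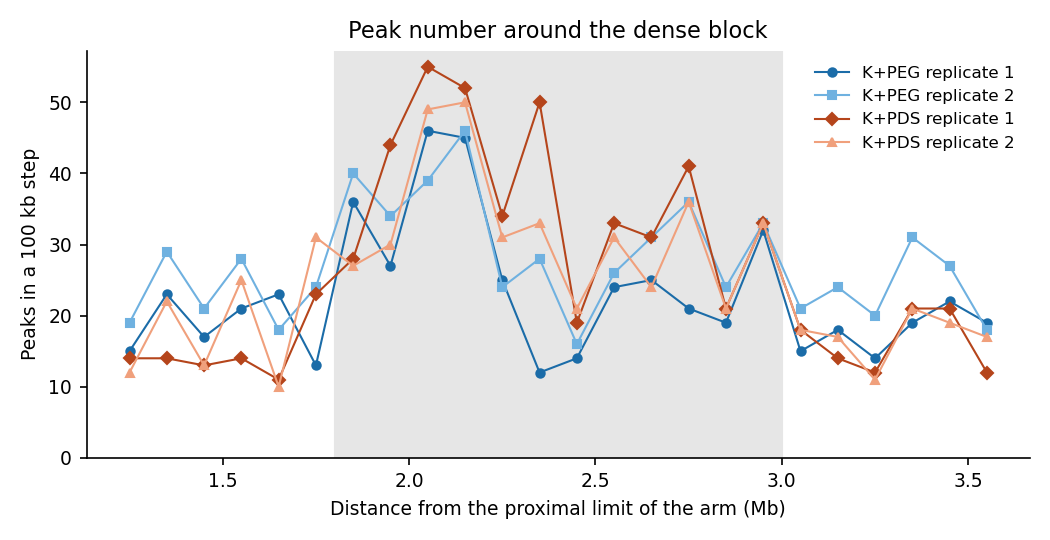
Peaks per 100 kb step around the dense block (shaded, 1.8 to 3.0 Mb from the proximal limit), 1 line per library. K+PDS replicate 1 reached 55 and 50 peaks in steps where K+PEG replicate 1 had 46 and 12.

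The dense block from 18.1 to 19.3 Mb was delimited after the values of the steps had been seen, so it is described without a test. Its 1.2 Mb held 326 and 377 peaks under K+PEG and 441 and 386 under K+PDS, so that every K+PDS library exceeded every K+PEG library in number, the reverse of the arm as a whole. It took 11.8 and 11.9% of the arm's peaks under K+PEG and 17.8 and 14.5% under K+PDS. Per Mb, the block was 1.47 and 1.48 times as dense as the remaining arm under K+PEG and 2.38 and 1.86 times under K+PDS. On the log2 scale the mean of K+PEG minus that of K+PDS was -0.51, and -0.33 without K+PDS replicate 1. Peaks covered 13.4 and 17.9% of the block under K+PEG and 23.1 and 18.4% under K+PDS, compared with 8.56, 10.4, 7.36 and 7.65% of the remaining arm. Neighbouring peaks lay closer together, with a median distance of 1185 and 1132 bp under K+PEG and 635.5 and 1039 bp under K+PDS.
Within the block, both K+PDS libraries exceeded both K+PEG libraries as a share of their lists in 7 steps in a row, from 18.2 to 18.9 Mb, and again from 19.0 Mb to 19.4 Mb, just past its end. The largest difference was from 18.6 to 18.7 Mb, where K+PDS replicates 1 and 2 had 50 and 33 peaks and K+PEG replicates 1 and 2 had 12 and 28. Its ratio of mean shares, K+PEG to K+PDS, was 0.405, the 8th lowest of 3725 steps of the genome with a ratio. The first step of the block, from 18.1 Mb, went the other way, with 36 and 40 peaks under K+PEG and 28 and 27 under K+PDS. Over 1 Mb, the step from 18.3 Mb had a ratio of 0.697, which ranked 2 from the lowest among 363 steps of the genome.
The K+PDS peaks of the block also had a higher median fold enrichment and median length than those of the remaining arm. The median fold enrichment in the block was 4.23 and 3.41 under K+PDS against 3.64 and 3.22 outside it. Under K+PEG it was 3.88 and 3.38 against 3.76 and 3.61, higher in replicate 1 and lower in replicate 2. The median number of summit reads was 18 in both K+PDS libraries against 16 and 17 outside, and 21 and 30 against 21 and 33 under K+PEG. The median length was 435 and 382 bp in the block and 364 and 337 bp outside it under K+PDS, and 389 and 420 bp against 382 and 397 bp under K+PEG. The local background at the summit, relative to the lowest of the library, had a median of 1.04 and 1.03 under K+PEG and 1.00 in both K+PDS libraries within the block, compared with 1.13, 1.13, 1.10 and 1.11 outside. Background was thus lower in the block in all 4 libraries. The measure cannot go below 1, where both K+PDS medians lay, so the sizes of the drops cannot be compared between conditions. The part of background in the peak number and in the fold enrichment was not tested.
Peaks of the block were shared unequally. Of the K+PEG replicate 1 peaks in it, 84.4% overlapped a peak of K+PDS replicate 1, compared with 54.2% outside it. For K+PEG replicate 2 the shares were 80.1 and 56.0%. In the other direction the K+PDS libraries differed. Of the K+PDS replicate 1 peaks in the block, 54.6% overlapped a peak of K+PEG replicate 1, compared with 63.8% outside, whereas for K+PDS replicate 2 the shares were 58.0 and 53.8%. Against K+PEG replicate 2 they were 64.9 and 77.5% for K+PDS replicate 1 and 65.5 and 65.3% for K+PDS replicate 2. The K+PDS replicates overlapped each other more in the block, with 68.7% of replicate 1 and 80.3% of replicate 2 peaks against 63.3 and 57.7% outside. Peak density differed between the block and the remaining arm as given above, and its part in these shares was not tested.

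Compared as shares of each list, both K+PEG libraries lay above both K+PDS libraries in 46 of the 144 steps of 100 kb (31.9%) and below them in 29 (20.1%). Over all 3726 steps of the genome these calls were made in 31.6% and 22.0%, so the arm as a whole was close to the background. In steps of 1 Mb, K+PEG was higher in 4 of 14 (background 32.8%) and K+PDS in 1 of 14 (background 24.8%).
The calls were spread unevenly along the arm. In the proximal 4.8 Mb, 13 of 48 steps were higher under K+PEG and 15 under K+PDS, and the dense block held 10 of these 15. The middle had 12 and 8. In the distal 4.8 Mb, 21 steps were higher under K+PEG and 6 under K+PDS. The 3 largest differences toward K+PEG were all distal. The step from 26.2 Mb held 22 and 20 peaks under K+PEG and 9 in each K+PDS library, that from 29.1 Mb held 26 and 27 against 13 and 16, and that from 28.2 Mb held 23 in each K+PEG library against 12 in each K+PDS library. Toward K+PDS, the 3 largest were in the block, namely the steps from 18.6 and 18.3 Mb given above and that from 19.0 Mb, with 21 and 36 peaks under K+PEG and 41 and 36 under K+PDS.
Single K+PDS-rich steps also lay among the K+PEG-rich distal ones. From 26.9 to 27.0 Mb, the K+PDS replicates had 36 and 38 peaks and the K+PEG replicates 24 and 33, a step that was named after its values were seen and that ranked 126 by mean share in the genome. From 26.1 Mb, K+PDS had 14 and 18 peaks and K+PEG 11 and 10, next to the step with the largest difference toward K+PEG.

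**Figure D4:**
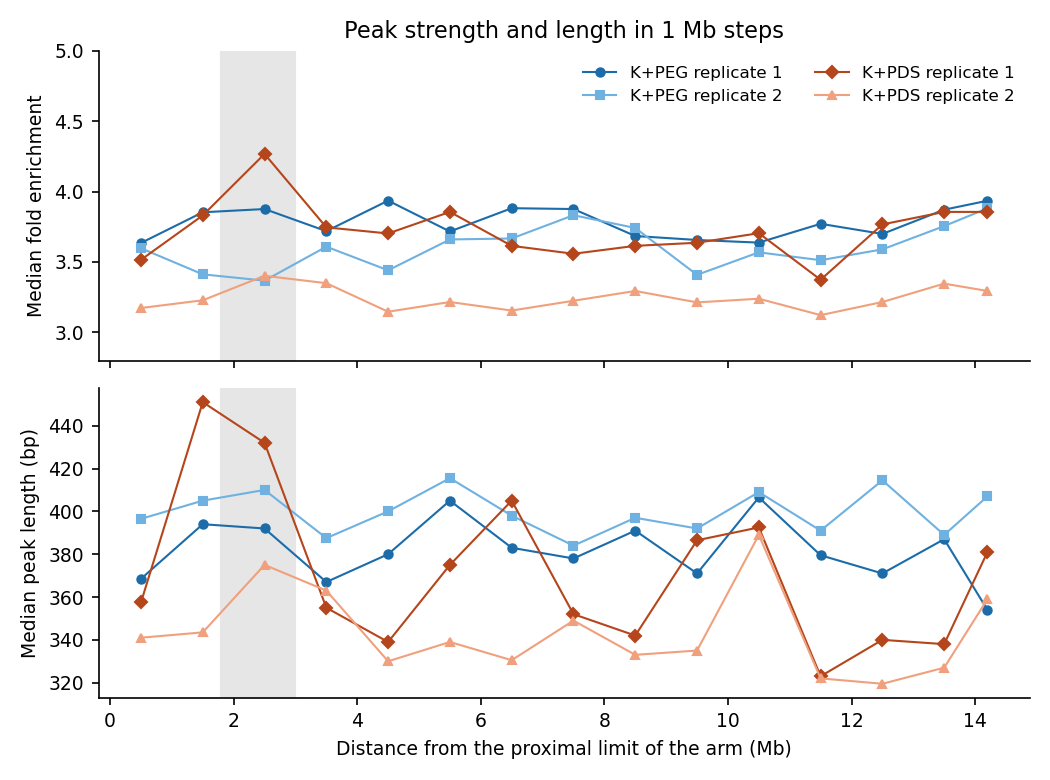
Median fold enrichment (top) and median peak length (bottom) in steps of 1 Mb against the distance from the proximal limit, 1 line per library, with the dense block shaded. K+PDS replicate 1 rose to a median fold enrichment of 4.27 in the step from 18.3 Mb, while medians elsewhere stayed from 3.12 to 3.94.

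Peak strength, given by the authors' fold enrichment at the summit over the local background, changed little along the arm. Its median over the arm was 3.79 and 3.59 under K+PEG and 3.77 and 3.22 under K+PDS, against 3.78, 3.59, 3.77 and 3.24 in the rest of the genome. The libraries of the conditions overlapped (exact permutation test, two-sided, p = 0.667). The middle 50% of the peaks had values from 3.01 to 4.92 in K+PEG replicate 1, from 2.74 to 5.11 in replicate 2, from 3.13 to 4.82 in K+PDS replicate 1 and from 2.78 to 3.84 in replicate 2. The strongest peaks reached 17.1 and 15.8 under K+PEG and 29.8 and 28.4 under K+PDS. The median peak had 21 and 32 summit reads under K+PEG and 16 and 17 under K+PDS.
From the proximal to the distal 4.8 Mb the median fold enrichment went from 3.84 to 3.74 and from 3.49 to 3.61 under K+PEG, and from 3.86 to 3.67 and from 3.22 to 3.21 under K+PDS. The change had no common direction under K+PEG and was -0.042 on average, or 0.0068 without K+PDS replicate 1 and -0.124 when peaks with a −log10 p under 5 were dropped. The conditions overlapped in it (exact permutation test, p = 0.667). The median number of summit reads was 16 and 17 at both ends under K+PDS.
Length differed more with position under K+PDS than under K+PEG. The median over the arm was 383 and 398 bp under K+PEG and 375 and 340 bp under K+PDS. Both K+PEG libraries were longer (exact permutation test, two-sided, p = 0.33, the smallest value that 2 libraries against 2 allow). The mean did not separate them, with 466 and 501 bp against 504 and 461 bp. From proximal to distal the median went from 379.5 to 381 bp and from 398 to 397.5 bp under K+PEG, whereas it went from 392 to 348.5 bp and from 356 to 333.5 bp under K+PDS. Both K+PDS libraries became shorter and neither K+PEG library changed by more than 1.5 bp, a difference of 33.5 bp between the conditions (exact permutation test, two-sided, p = 0.33, the smallest possible). The difference was 14.5 bp without the dense block, 17.2 bp with both parts extended to the middle of the arm and 79.9 bp for the mean length.
Broad peaks of at least 2 kb were few under K+PEG, with 2 and 6 on the arm, and more under K+PDS, with 28 and 17. They made up 0.0723 and 0.189% of the K+PEG peaks and 1.13 and 0.636% of the K+PDS peaks of the arm, each below its share in the rest of the genome (0.189, 0.426, 1.66 and 0.836%). Of the K+PDS ones, 17 and 8 lay in the proximal 4.8 Mb and 3 and 3 in the distal 4.8 Mb, and the dense block held 11 and 5 of them.
The longest peak of both K+PDS libraries lay at the same place in the block. In K+PDS replicate 1 it ran from 18447786 to 18452183 (4398 bp, fold enrichment 7.37) and in replicate 2 from 18447484 to 18451298 (3815 bp, 5.28). The K+PEG replicates had 4 and 5 separate peaks across the former. K+PEG replicate 2 had its longest peak from 21192485 to 21195435 (2951 bp, 12.3), where the other libraries each had 2 peaks. In K+PEG replicate 1 it ran from 25764380 to 25766411 (2032 bp, 4.01), across which K+PDS replicate 1 had a single peak of 2951 bp.

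**Figure D5:**
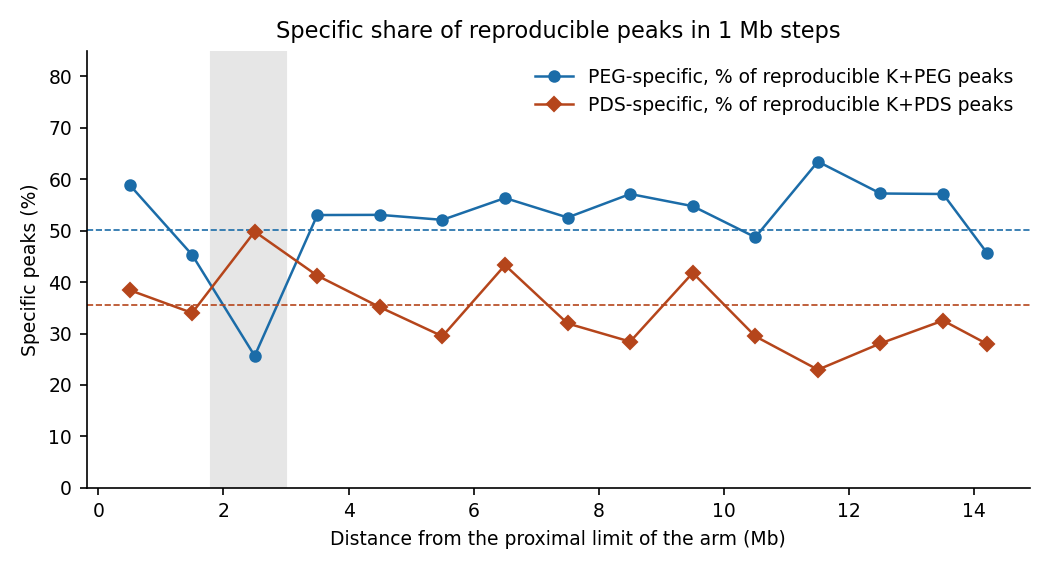
Share of reproducible peaks without an overlapping reproducible peak of the other condition in steps of 1 Mb, against the distance from the proximal limit. Dashed lines give the share over the genome, 50.1% for PEG-specific and 35.6% for PDS-specific peaks, and the order of the conditions is reversed only in the step of the dense block.

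Segments shared by the peaks of both replicates, by at least 1 bp, numbered 2311 under K+PEG and 1734 under K+PDS on the arm, a ratio of 1.33. PEG-specific peaks, which overlap no reproducible K+PDS peak, made up 1188 of the former (51.4%, background 50.1%). PDS-specific peaks made up 639 of the latter (36.9%, background 35.6%). Both shares lay near those of the genome, as did the ratio of PEG-specific to PDS-specific peaks, 1.86 on the arm and 1.89 in the genome. The median length of specific segments was 282 bp for PEG and 240 bp for PDS, shorter than the 446 and 334 bp of the segments that did overlap. The lower fold enrichment of the 2 peaks behind each had a median of 3.23 and 3.01, against 3.93 and 3.40.
The balance shifted along the arm. PEG-specific peaks outnumbered PDS-specific ones by a ratio of 1.21 in the proximal 4.8 Mb (385 and 319 peaks), 2.1 in the middle (423 and 201) and 3.19 in the distal 4.8 Mb (380 and 119). The number of PEG-specific peaks hardly differed between the ends, while PDS-specific peaks went from 41.8 to 28.7% of the reproducible K+PDS peaks, which numbered 763 in the proximal and 414 in the distal part. In the dense block the ratio was 0.494, with 80 PEG-specific and 162 PDS-specific peaks. The block lies in the proximal 4.8 Mb, so these are among its 385 PEG-specific and 319 PDS-specific peaks. The low ratio and the high PDS-specific share of the proximal part thus rested in part on the block. Neither was computed for the proximal part without it. In the block, 28.2% of the reproducible K+PEG peaks were specific, compared with 54.7% on the remaining arm. Of the reproducible K+PDS peaks, 47.1% were specific there, compared with 34.3%. By step, the PEG-specific share was lowest from 18.3 Mb (25.7%) and highest from 27.3 Mb (63.4%), and the PDS-specific share was highest (49.8%) and lowest (23.0%) in the same 2 steps.

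When overlapping peaks of the 4 lists were merged, the arm had 4504 of 115855 sites. Of these, 1043 had a peak of every library (23.2%, background 23.7%), 796 of 3 libraries (17.7%, background 18.1%), 477 of both K+PEG libraries only (10.6%, background 10.1%) and 170 of both K+PDS libraries only (3.77%, background 3.78%). A further 1681 came from a single library (37.3%, background 36.7%), of which K+PDS replicate 2 gave 595, more than any other library. The arm thus had close to the genome's mixture. Sites of both K+PEG libraries only rose from 8.39% of all sites in the proximal 4.8 Mb through 10.9% to 13.1% in the distal 4.8 Mb, whereas those of both K+PDS libraries only went from 5.42% through 3.25% to 2.28%. The dense block had 51 of the 170 K+PDS-only sites and 17 of the 477 K+PEG-only sites, 9.90 and 3.30% of its 515 sites. It lies in the proximal 4.8 Mb, which had 91 K+PDS-only and 141 K+PEG-only sites with the block included. The proximal shares of both classes thus rested in part on the block, and they were not computed without it. Sites of all 4 libraries were also more frequent in the block, at 30.9% against 22.2% on the remaining arm.

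The strongest site with peaks of all 4 libraries, ranked by the lowest of its 4 fold enrichments, lay on chromosome 6 from 25687554 to 25688321. It was enriched 16.9-fold and 14.2-fold under K+PEG (92 and 120 summit reads) and 28.2-fold and 20.2-fold under K+PDS (122 and 125 summit reads). Both K+PDS values were above both K+PEG values. The next site, from 24452946 to 24454314, was nearly even, with 13.5 and 13.2 under K+PEG and 12.9 and 13.9 under K+PDS. The last of these sites, from 19216379 to 19218825, lay in the dense block and was made of 2 peaks in each library, with a highest fold enrichment of 10.9 and 11.7 under K+PEG and 15.4 and 11.7 under K+PDS.
Among reproducible K+PEG peaks free of any K+PDS peak, the strongest lay from 22817259 to 22817591, enriched 7.22-fold and 6.99-fold (38 and 58 summit reads). A peak of K+PDS replicate 1 lay 171 bp away. The next, from 26450359 to 26451046 in the K+PEG-rich distal part, had 6.71 and 6.84, and no K+PDS peak lay within 7937 bp of it. The last of the 3, from 16995701 to 16996077, had 6.52 and 7.19, with K+PDS peaks 530 and 561 bp away.
The strongest reproducible K+PDS peak free of any K+PEG peak lay from 23569263 to 23569575, enriched 7.29-fold and 9.81-fold (40 and 66 summit reads), and the nearest K+PEG peaks were 3308 and 2626 bp away. The next, from 22634637 to 22635428, had 6.58 and 6.85 and came from long peaks of 1379 and 2786 bp, with K+PEG peaks 176 and 251 bp away. The shared segment from 19143668 to 19143793, in the dense block, was only 126 bp long and was cut from peaks of 1079 and 1435 bp. These peaks were enriched 6.14-fold and 9.45-fold at summits at 19144435 and 19142802, on opposite sides of the segment and outside it, and K+PEG peaks lay 92 and 138 bp from the segment. Of the 6 condition-specific loci, only the second K+PEG one and the first K+PDS one were thus more than 2 kb from every peak of the other condition. All were chosen for their strength and for lacking a peak of the other condition, so that their difference is a description.

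At the limits of the arm, the members next to the proximal one had their summits between 16300076 and 16327630, and the nearest excluded peaks between 16290668 and 16298520. At the distal limit the last members had summits between 30634726 and 30681160 and the first excluded peaks between 30704091 and 30705446. Fold enrichment at these limits ranged from 2.57 to 8.53 inside and from 2.07 to 5.30 outside.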

How the data were processed

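The 4 deposited peak lists (10 columns, no header) were used. According to the study's methods, reads were trimmed (Trim Galore) and mapped (BWA) to the MSU v7.0 assembly, short alignments and duplicates were discarded, and the authors ran MACS2 on every library. The control used is not given in the sources used here. The authors' fold enrichment is a ratio over the local background, and the deposited −log10 p and −log10 q are those of the summit. The deposited score was not used. Printed starts are the deposited start plus 1 bp.

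Groups came from the sample titles. Members, steps and loci were chosen with earlier results of these data known. Loci were the 3 strongest sites per class, the 3 most extreme steps of 100 kb in density and in difference, and the longest peaks. Nothing says whether the replicates came from separate plants beyond the methods calling them biological, and peaks are not replicates.

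Summit reads and background were solved from fold enrichment and −log10 p under the Poisson distribution, exactly to 0.001 for every peak of the arm, and depth was taken from the lowest background. A list holds nothing below its threshold, so absence of a peak is not absence of signal. The tools were Python 3.11.15, pandas 2.3.3, numpy 2.4.6, scipy 1.17.1, matplotlib 3.10.9 and, for overlaps, bedtools 2.31.1. Libraries were compared by exact permutation tests for fold enrichment and length, and without a test for peak number and density. The procedures were tested on simulated data. Alternatives were a −log10 p of at least 5, equal list lengths, covered bases, other limits and steps, thinning (20 draws), a reciprocal overlap of 50%, a stricter definition of specific, leaving out each library, and a fit blocked by replicate number. Settings without the dense block were added after its values were seen. Genes and sequences of MSU v7.0 were not used here.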

Additional observations from a re-analysis of the deposited data

How the results depend on the processing

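The excess of K+PEG peaks on the arm depended on list length: its ratio of 1.16 turned to 0.986 with equally long lists. The mean density relative to the rest of the genome, 0.995, was 0.981 with a −log10 p of at least 5, 0.967 by covered bases and 1.01 with both limits moved inwards by 1 Mb. The ratio of distal to proximal density was 0.822 without the dense block, an alternative added after seeing the data. Without that block, the difference between the conditions in the change of fold enrichment went from 0.11 to -0.0091. K+PDS was then higher in 19 of 132 steps of 100 kb, in place of 29 of 144. The change of the mean length from proximal to distal was -51.0 bp, against -16.2 bp for the median. K+PEG was higher in 70 of the 144 steps by covered bases. Steps of 50 kb gave 87 higher under K+PEG and 63 under K+PDS, and steps of 200 kb gave 26 and 13, out of other numbers of steps. The share of such calls over the genome was computed only by peak number in steps of 100 kb and 1 Mb. A −log10 p of at least 5 left 1035 reproducible K+PDS and 390 PDS-specific peaks, and a reciprocal overlap of 50% left 1024 reproducible K+PDS peaks. No genome share was computed for these settings. When specific peaks had to avoid every peak of the other condition, 555 PEG-specific and 259 PDS-specific peaks remained. They made up 24.0 and 14.9% of the reproducible peaks, against 22.2 and 14.3% in the genome, and were fewer by construction. The cause of the other changes was not tested.

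With a library left out, the difference in the distal to proximal log2 ratio ran from 0.15 (without K+PDS replicate 1) to 0.44 (without K+PDS replicate 2), the mean change of fold enrichment from -0.0972 (without K+PEG replicate 2) to 0.0068 (without K+PDS replicate 1) and the mean change of median length from -22.2 to -7.17 bp (without K+PDS replicate 1). The difference in the change of fold enrichment ran from -0.0040 (without K+PEG replicate 2) to 0.219. The steps higher under K+PEG ran from 59 to 75 and those higher under K+PDS from 36 to 49. Both ranges lay above the 46 and 29 of all 4 libraries, since 1 library against 2 separates more easily by construction. The genome share under this looser rule was not computed. In these settings 1 whole list stands for a condition in place of the segments shared by 2. Reproducible K+PDS peaks then ranged from 1734 to 2671, PEG-specific from 803 to 1833, PDS-specific from 339 to 1350 and their ratio from 0.685 (without K+PDS replicate 1) to 5.41 (without K+PEG replicate 1).

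The difference of the conditions inside against outside the dense block was -0.51 on the log2 scale. It ran from -0.75 by covered bases to -0.33 without K+PDS replicate 1 over the settings run. The dense block had been delimited after the step values of the same peaks were seen. Its direction could therefore hardly change, and the range is a description. With the replicate number as a block, the ratio of peak numbers was 1.15 and the distal difference 0.29. Same-numbered libraries deviated with a correlation of -0.11 over the steps of the arm, so no pairing by number was seen in these steps. Whether libraries shared a preparation was not tested. The crossed pairing, run for the peak number alone, gave a ratio of 1.15. This mean ratio is the same under either pairing by construction, so it cannot tell whether the numbers pair the libraries.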
